A study of Mus musculus with 4 samples.

Results

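Cspg4, Vcan, Ncan, Bcan, Acan, Cspg5, Ptprz1, Tnr, Tnc and Gpc5 encode proteoglycans and tenascins of the extracellular matrix around oligodendrocyte precursor cells (OPCs) and neurons. The 10 genes were taken by symbol from the 53465 genes listed in the count tables, with no threshold on a measured value. The list was chosen with earlier results of these data known, and all 10 genes were detected in every library. RNA-Seq had been performed on primary oligodendroglial cells (1° OGCs), which were grown from the forebrain of P2 to P4 mice as mixed glia, shaken off, depleted of microglia and kept under differentiating conditions for 3 days. Ctrl cultures carried the genotype Zfp276 flox/flox, in which exons of the zinc finger transcription factor gene Zfp276 are flanked by loxP sites, and Zfp276cko cultures carried the same floxed alleles together with a Sox10::Cre transgene, with 2 libraries of each genotype. The transgene is active in cells of the oligodendroglial lineage from the OPC stage, and recombination in other cell types of a culture was not measured here. The ctrl cells differ from the Zfp276cko cells also in lacking Cre. The study derived each preparation from several mice with a background of C3H and C57Bl/6J and used male and female animals, and a Rosa26 tdTomato reporter allele had been crossed into the mice used for such cultures.

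Proteoglycans are core proteins that carry long sulfated sugar chains, which are chondroitin sulfate on most of the genes described here and heparan sulfate on glypicans. Versican, neurocan, brevican and aggrecan (Vcan, Ncan, Bcan and Acan) form the lectican family, whose one end binds hyaluronan with the help of link proteins and whose other end binds tenascins, and together these molecules build the perineuronal net and the matrix at the node of Ranvier. NG2 (Cspg4) is the surface proteoglycan by which OPCs are recognised, and several of the other proteins are abundant in OPCs, astrocytes or young neurons and limit axon growth.

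The libraries held between 21068322 and 26599809 counted reads, and 15766 genes passed the filter on low counts, all 10 members among them. Zfp276 itself had 1648 and 2230 normalized counts (counts scaled to a common library size) in ctrl against 489.5 and 502.6 in Zfp276cko cells, 25.6% of the ctrl mean, while Sox10, which is expressed throughout the lineage, had a log2 fold change of -0.09 (adjusted p = 0.771, edgeR). Zfp276 shares 920 exonic bases with Fanca and 154 with Vps9d1 on the opposite strand, and the source of its remaining reads was not tested. The ctrl libraries stood much further apart than the Zfp276cko libraries. Of 14324 genes with a mean of at least 20 normalized counts, 12.6% lay 2-fold or more apart in the ctrl replicates, compared with 0.307% in those of Zfp276cko. edgeR's quasi-likelihood test called no gene at an adjusted p of at most 0.05, a log2 fold change of at least 0.6 in size and a mean of at least 20 counts, and the smallest adjusted p of any gene was 0.0725. At an unadjusted p under 0.05 the same test held 1151 lower and 1313 higher genes, while DESeq2 called 335 lower and 445 higher and limma voom 72 and 133. With 2 libraries against 2, an exact permutation test of a single gene cannot go below p = 0.333 (two-sided).

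The 10 genes were ordered by their counts divided by the length of their exons. That length joins the exons of all annotated transcripts of a gene. The transcripts present in the cells were not determined, so the order is approximate. Tnr stood first in ctrl cells with a mean of 5765 normalized counts per kb, ahead of Bcan with 3120, Ptprz1 with 2487, Ncan with 2009 and Vcan with 1804 counts per kb. A second tier was formed by Cspg5 with 408, Cspg4 with 282, Tnc with 156 and Acan with 126 counts per kb, and Gpc5 was near the lower end of detection with 8.86. The ctrl libraries of neighbouring genes in this order overlapped for Ncan and Vcan and for Tnc and Acan, and were apart for all other neighbours. In Zfp276cko cells the order was Tnr (4062 counts per kb), Ncan (2475), Bcan (2386), Ptprz1 (2085), Vcan (1029), Acan (259), Cspg4 (188), Cspg5 (184), Tnc (76.1) and Gpc5 (6.67), with overlapping libraries for Ncan and Bcan and for Cspg4 and Cspg5. Tnr ranked 13 among all tested genes by mean normalized count. That count was not divided by exon length, which is 12867 bases for Tnr, so the rank is one of reads and not of transcripts.

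In Zfp276cko cells, 7 of the 10 genes were lower in both libraries than in both ctrl libraries, namely Cspg4, Vcan, Bcan, Cspg5, Ptprz1, Tnr and Tnc. Ncan and Acan were above both ctrl libraries, and Gpc5 overlapped. Among all tested genes, 23.7% were below both ctrl libraries and 26.8% above both. None of the 10 was called by edgeR (background 0% lower and 0% higher), with adjusted p-values from 0.0962 for Cspg5 to 0.766 for Gpc5. At an unadjusted p under 0.05, edgeR's test held 4 lower members (Cspg4, Cspg5, Tnr and Tnc, against 7.3% of all tested genes) and 1 higher member (Ncan, against 8.33%). DESeq2 called 2 members, Cspg5 and Tnc, lower (against 2.11% of the genes it tested) and none higher (against 2.8%), and limma voom with quality weights per genotype called the same 2 genes (against 0.457% lower and 0.844% higher). The median log2 fold change was -0.46 over the members and -0.0013 over all tested genes. In a culture of several cell types, fewer cells of a type and less RNA per cell cannot be told apart.

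**Figure D1:**
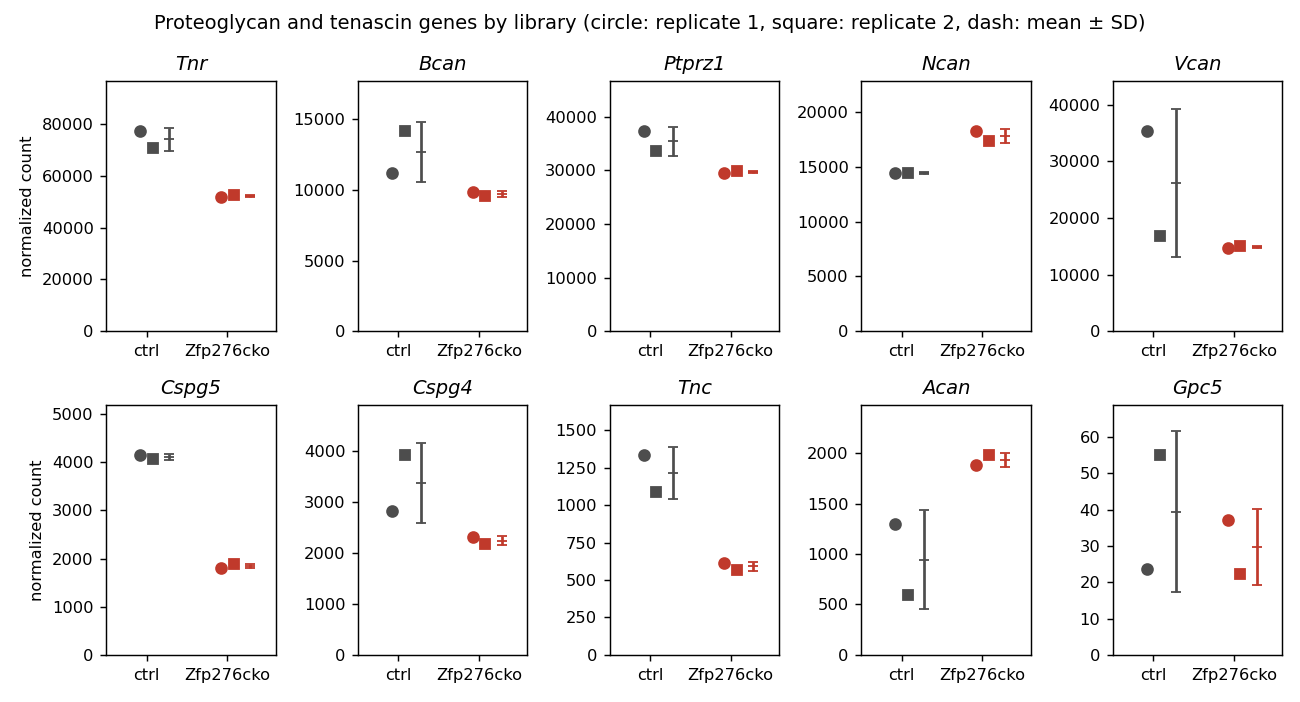
Normalized counts (vertical axis, from 0 in each panel) of the 10 genes in the ctrl (grey) and Zfp276cko (red) libraries, with circles for replicate 1, squares for replicate 2 and bars for the mean ± SD of 2 libraries. The Zfp276cko replicates lie close together for every gene but Gpc5, whereas the ctrl replicates of Vcan, Acan and Gpc5 are more than 2-fold apart.

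RefSeq start sites were available for 9 of the 10 genes (all but Cspg5, mouse build GRCm38.p6). The 250 bases before the start site are shown for 2 genes that were lower in Zfp276cko cells and for the 2 that were higher, with matches to the searched motifs in capitals. The motifs were ACAAAG and ACAATG (cores bound by Sox proteins), CACCTG and CAGCTG (E-boxes, the first of which is read by Zeb2 among others), GGGCGG (GC box) and TATAAA, each searched on both strands, in a window that also held the first 50 bases of the transcript.
Cspg4 (chr9:56864854-56865103, plus strand): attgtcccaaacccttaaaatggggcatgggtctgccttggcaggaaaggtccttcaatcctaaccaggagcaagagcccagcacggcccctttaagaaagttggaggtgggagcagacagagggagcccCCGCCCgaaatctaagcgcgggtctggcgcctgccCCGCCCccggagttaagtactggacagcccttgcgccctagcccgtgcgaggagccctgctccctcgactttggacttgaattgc
Tnc (chr4:64047016-64047265, minus strand): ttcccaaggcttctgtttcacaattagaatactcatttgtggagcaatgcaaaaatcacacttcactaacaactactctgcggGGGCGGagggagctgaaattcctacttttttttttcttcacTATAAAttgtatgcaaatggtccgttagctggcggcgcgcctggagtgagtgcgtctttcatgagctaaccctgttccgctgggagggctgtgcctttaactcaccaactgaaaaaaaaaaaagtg
Ncan (chr8:70120845-70121094, minus strand): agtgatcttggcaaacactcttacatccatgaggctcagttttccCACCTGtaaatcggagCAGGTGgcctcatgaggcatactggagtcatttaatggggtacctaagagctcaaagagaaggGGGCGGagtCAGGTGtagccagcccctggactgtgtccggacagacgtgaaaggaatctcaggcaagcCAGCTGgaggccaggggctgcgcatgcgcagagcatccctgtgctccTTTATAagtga
Acan (chr7:79052976-79053225, plus strand): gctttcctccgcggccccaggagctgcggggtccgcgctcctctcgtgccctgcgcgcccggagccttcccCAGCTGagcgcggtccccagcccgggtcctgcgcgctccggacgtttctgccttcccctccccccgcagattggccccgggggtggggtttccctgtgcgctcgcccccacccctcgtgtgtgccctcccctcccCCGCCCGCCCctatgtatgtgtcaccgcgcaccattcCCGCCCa

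The GC box was found in 8 of the 9 windows, all but that of Tnr, compared with 35.7% of 32851 promoter windows of the same length in the genome. Ncan was the 1 member with CACCTG, at 3 places, and 0.365% of all windows held 3 or more such matches, while 20.2% held at least 1. The limit of 3 is the number in the Ncan window. CAGCTG was found in Ncan and Acan (16.3% of all windows), TATAAA in Ncan, Tnc and Gpc5 (13.6%), ACAAAG in Tnr (18.7%) and ACAATG in none of the 9 (12.6%). The last bases of the Acan sequence hold 3 GC boxes, of which 2 overlap. The base composition of the windows varied widely. Against a median of 52.7% in all windows, G and C made up 74% of the Acan window and 71.7% of that of Ptprz1. The windows of Bcan (64%), Vcan (61%), Cspg4 (60%), Ncan (56.7%) and Gpc5 (54.7%) were also above the median. Those of Tnr (48%) and Tnc (47.3% in the window shown) were below it, while a second Tnc start site in RefSeq had 54%. The GC box holds only G and C, and its share was not compared among windows of similar composition. These matches are a description of letters, and binding of a factor was not measured in these libraries.

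Cspg4 encodes NG2, a membrane-spanning chondroitin sulfate proteoglycan of OPCs and pericytes, and lies on chr9:56865033-56899870 (mm10, plus strand). It had 2809 and 3918 normalized counts in the ctrl libraries and 2300 and 2177 in the Zfp276cko libraries. Both Zfp276cko values were below the lower ctrl value, and ctrl replicate 2 was the highest of the 4. The means were 3364 ± 784 and 2239 ± 87.0 (SD, n = 2), which gave a log2 fold change of -0.59 with a standard error of 0.19 and an adjusted p of 0.277 (edgeR). The estimate shrank to -0.34 once ctrl replicate 2 was left out. Pdgfra, the growth factor receptor that also marks OPCs, had 10049 and 15501 counts in ctrl against 11842 and 11561 in Zfp276cko cells, so that its groups overlapped (log2 fold change -0.13, adjusted p = 0.837, edgeR). The ratio of Cspg4 to Pdgfra counts per kb was 0.235 and 0.212 in ctrl against 0.163 and 0.158 in Zfp276cko libraries, with no overlap.

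The lecticans differed among themselves in direction. Vcan (versican, the large lectican of OPCs and of loose connective tissue; chr13:89655312-89742509, minus strand) had 35319 and 16872 counts in ctrl against 14769 and 15002 in Zfp276cko cells. Ctrl replicate 1 held 2.09 times the count of ctrl replicate 2, which itself was little above the Zfp276cko values. Its log2 fold change was -0.81 with a standard error of 0.38 (95% interval -1.85 to 0.23, adjusted p = 0.405, edgeR). The estimate was -0.18 if ctrl replicate 1 was left out and -1.26 if ctrl replicate 2 was. The summed level of 8 fibroblast markers was 326 CPM (counts scaled to the size of the library) in ctrl replicate 1 and between 13.0 and 18.5 in the other 3 libraries, and its part in the Vcan result was not tested.

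Bcan (brevican, made by OPCs and astrocytes; chr3:87987531-88000230, minus strand) had 11185 and 14171 counts in ctrl against 9848 and 9549 in Zfp276cko cells. Both Zfp276cko values were below both ctrl values, with a log2 fold change of -0.39 and a standard error of 0.16 (adjusted p = 0.350, edgeR). For Bcan the estimate was -0.22 once ctrl replicate 2 was left out.

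Ncan (neurocan, a soluble lectican of the young brain; chr8:70093085-70120873, minus strand) had 14494 and 14416 counts in ctrl against 18278 and 17344 in Zfp276cko cells. The ctrl libraries were nearly equal here, and both Zfp276cko libraries lay above them. The Zfp276cko mean was 123% of the ctrl mean, a log2 fold change of 0.30 with a standard error of 0.11, and this did not pass the adjusted test (adjusted p = 0.316, edgeR). Leaving out any single library gave values from 0.27 to 0.34.

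Acan (aggrecan, the lectican that dominates mature perineuronal nets and cartilage; chr7:79053483-79115099, plus strand) had 1293 and 595 counts in ctrl against 1882 and 1984 in Zfp276cko cells. Both Zfp276cko libraries were above both ctrl libraries, but ctrl replicate 1 held 2.17 times the count of ctrl replicate 2. The log2 fold change was 1.03 with a standard error of 0.39 (95% interval -0.03 to 2.09, adjusted p = 0.330, edgeR). For Acan the estimate was 1.70 if ctrl replicate 1 was left out and 0.57 if ctrl replicate 2 was. The ctrl library with more fibroblast marker counts was also the one with more Acan, and the part of those cells in the Acan result was not tested.

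The mixture of lecticans differed between libraries. By counts per kb, Ncan made up 27.3% and 29.7% of the lectican total in ctrl and 40.7% and 39.8% in Zfp276cko cells. The share of Acan was 2.35% and 1.18% in ctrl, as opposed to 4.04% and 4.38% in Zfp276cko libraries. Neither share overlapped between the genotypes. Vcan made up 33.1% and 17.3% in ctrl and 16.4% and 17.1% in Zfp276cko libraries, where the lower ctrl value lay just above the higher Zfp276cko value. Bcan made up 37.3% and 51.8% against 38.9% and 38.8%, which overlapped. The ratio of Ncan to Bcan was 0.732 and 0.575 in ctrl against 1.05 and 1.03 in Zfp276cko libraries. The total itself was 7382 and 6737 counts per kb in ctrl against 6237 and 6063 in Zfp276cko libraries.

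**Figure D2:**
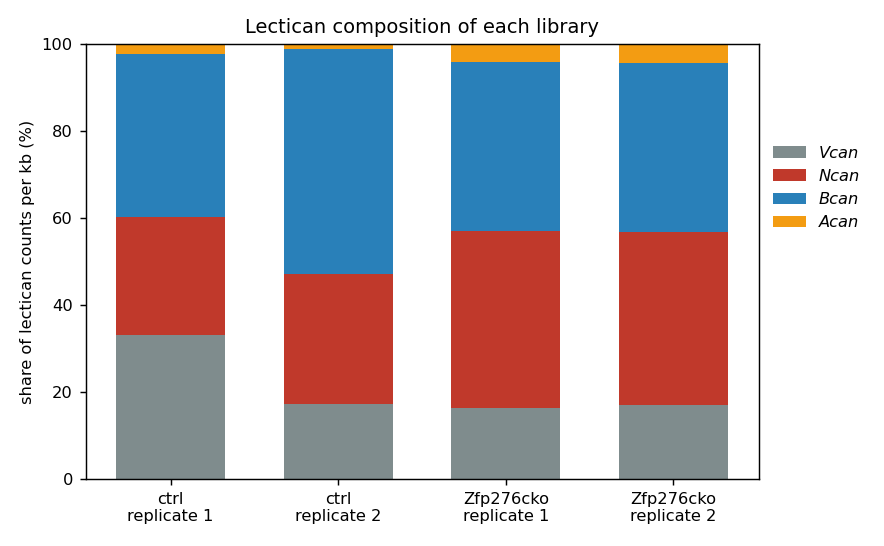
Share of each lectican (vertical axis, percent of the summed normalized counts per kb of Vcan, Ncan, Bcan and Acan) in each of the 4 libraries (bars). The Ncan section is larger in both Zfp276cko libraries (40.7% and 39.8%) than in both ctrl libraries (27.3% and 29.7%), and the ctrl libraries differ most in Vcan and Bcan.

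Each lectican lies beside the gene of a link protein, the small proteins that lock lecticans onto hyaluronan, with no protein-coding gene between them in the annotation. Hapln4 lies 2222 bases from Ncan and had 116 and 82.1 counts in ctrl against 244 and 243 in Zfp276cko cells (log2 fold change 1.30, standard error 0.25, adjusted p = 0.168, edgeR). Its libraries were apart in the same direction as those of Ncan, and DESeq2 gave it an adjusted p of 0.0062. Hapln2 lies 21519 bases from Bcan and had 126 and 129 counts in ctrl against 85.1 and 97.1 in Zfp276cko cells (log2 fold change -0.49, adjusted p = 0.393, edgeR). Hapln1, at 43659 bases from Vcan, had 52.2 and 31.5 counts in ctrl against 42.5 and 62.7 in Zfp276cko cells, which overlapped. Hapln3, whose end is 2 bases from that of Acan on the opposite strand, was at 2.37 and 13.5 counts in ctrl against 15.4 and 14.6 in Zfp276cko cells. Too few Hapln3 reads were counted to compare it with Acan. Hapln3 and Hapln1 were chosen for their position, after their values were seen, as was Hapln2.

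Cspg5 showed the clearest difference of the 10 genes. It encodes neuroglycan C, a membrane-spanning chondroitin sulfate proteoglycan with an EGF-like domain that neurons and OPCs express, and lies on chr9:110243783-110262576 (plus strand). Its counts were 4156 and 4074 in ctrl against 1815 and 1883 in Zfp276cko cells. Replicates of either genotype were close to each other, and the Zfp276cko mean (1849 ± 48.2, SD, n = 2) was 44.9% of the ctrl mean (4115 ± 57.9). This amounted to a log2 fold change of -1.15 with a standard error of 0.087 (95% interval -1.39 to -0.92). Cspg5 ranked 14 among all tested genes by its unadjusted p of 0.000132, yet its adjusted p of 0.0962 did not pass edgeR's threshold. DESeq2 gave an adjusted p of 5.08e-13 and limma voom 0.0227. Without single libraries the log2 fold change stayed between -1.18 and -1.12. The ratio of Cspg5 to Pdgfra counts per kb was 0.412 and 0.262 in ctrl against 0.153 and 0.162 in Zfp276cko libraries.

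Ptprz1 encodes a receptor tyrosine phosphatase whose secreted form, phosphacan, is a matrix proteoglycan that binds tenascins and contactin (chr6:22875502-23052916, plus strand). It had 37321 and 33535 counts in ctrl against 29542 and 29848 in Zfp276cko cells. The groups did not overlap, but the log2 fold change was small at -0.25 with a standard error of 0.13 (adjusted p = 0.434, edgeR). Counts per gene do not separate the receptor from the secreted form. Cntn1, the contactin that Ptprz1 and tenascin-R bind at the cell surface, had 11821 and 10924 counts in ctrl against 7177 and 7097 in Zfp276cko cells (log2 fold change -0.67, adjusted p = 0.134, edgeR; 0.00014 by DESeq2). The ratio of Ptprz1 to Cntn1 counts per kb was 2.09 and 2.03 in ctrl against 2.73 and 2.79 in Zfp276cko libraries.

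Tnr and Tnc encode tenascin-R and tenascin-C, large multi-armed glycoproteins that cross-link lecticans. Tenascin-R is a product of oligodendroglial cells and some interneurons, whereas tenascin-C belongs to immature glia. Tnr (chr1:159523769-159931729, plus strand) had 77377 and 70992 counts in ctrl against 52070 and 52473 in Zfp276cko cells. The gap between the genotypes was larger than that between the ctrl replicates, and the means were 74184 ± 4515 and 52272 ± 285 (SD, n = 2). On the log2 scale the fold change was -0.51 with a standard error of 0.14 (adjusted p = 0.232, edgeR). DESeq2 gave Tnr an adjusted p of 0.00855 with a log2 fold change under the limit of 0.6. The ratio of Tnr to Cntn1 counts per kb was 4.80 and 4.76 in ctrl against 5.32 and 5.42 in Zfp276cko libraries.

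Tnc (chr4:63959785-64047015, minus strand) had 1336 and 1090 counts in ctrl against 613.5 and 568.8 in Zfp276cko cells. Both Zfp276cko libraries were far below both ctrl libraries, and the Zfp276cko mean of 591 ± 31.6 was 48.7% of the ctrl mean of 1213 ± 173 (SD, n = 2). Its log2 fold change was -1.04 with a standard error of 0.15 (95% interval -1.43 to -0.64, adjusted p = 0.123, edgeR). DESeq2 gave an adjusted p of 7.95e-05 and limma voom 0.0464. Leaving out single libraries gave -1.19 to -0.88. Tnc made up 2.78% and 2.48% of the counts per kb of both tenascins in ctrl and 1.91% and 1.76% in Zfp276cko libraries, without overlap. Tnr shares 443 exonic bases and Tnc 176 with a transcript on the opposite strand, and the strand setting of the counting is not stated, so reads there cannot be assigned to one strand.

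Gpc5, a glypican that carries heparan sulfate and is anchored to the membrane by a lipid (chr14:115092215-116525179, plus strand), was counted with 20 and 49 reads in ctrl against 41 and 26 in Zfp276cko cells before normalization. After it, the values were 23.75 and 55.14 in ctrl against 37.1 and 22.34 in Zfp276cko cells, and the genotypes overlapped. The log2 fold change of -0.41 had a standard error of 0.55 (95% interval -1.91 to 1.09). It turned to 0.30 without ctrl replicate 2 and was -0.90 without ctrl replicate 1, -0.81 without Zfp276cko replicate 1 and -0.09 without Zfp276cko replicate 2. Gpc5 shares 107 exonic bases with a transcript on the opposite strand. The ctrl values of Gpc5 were further apart than the genotype means.

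The values of the 10 genes varied more between the ctrl libraries than between the Zfp276cko libraries in most cases. The Zfp276cko replicates of the 9 genes other than Gpc5 differed by at most 7.57%. When 1 ctrl library was left out, the remaining one was assumed to vary like the Zfp276cko libraries, and edgeR then called many genes. Without ctrl replicate 1 it called Cspg4, Cspg5, Tnc and Gpc5 lower (5.76% of all genes tested then) and Acan higher (10.2%). Without ctrl replicate 2 it called Vcan, Cspg5 and Tnc lower (7.77%) and no member higher (10.8%). Cspg5 and Tnc were the members called in both cases. Both fits used the same Zfp276cko libraries and took the spread from them, so the second call is not independent of the first. The share of all genes called in both was not determined, so this overlap has no background to be compared with.

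**Figure D3:**
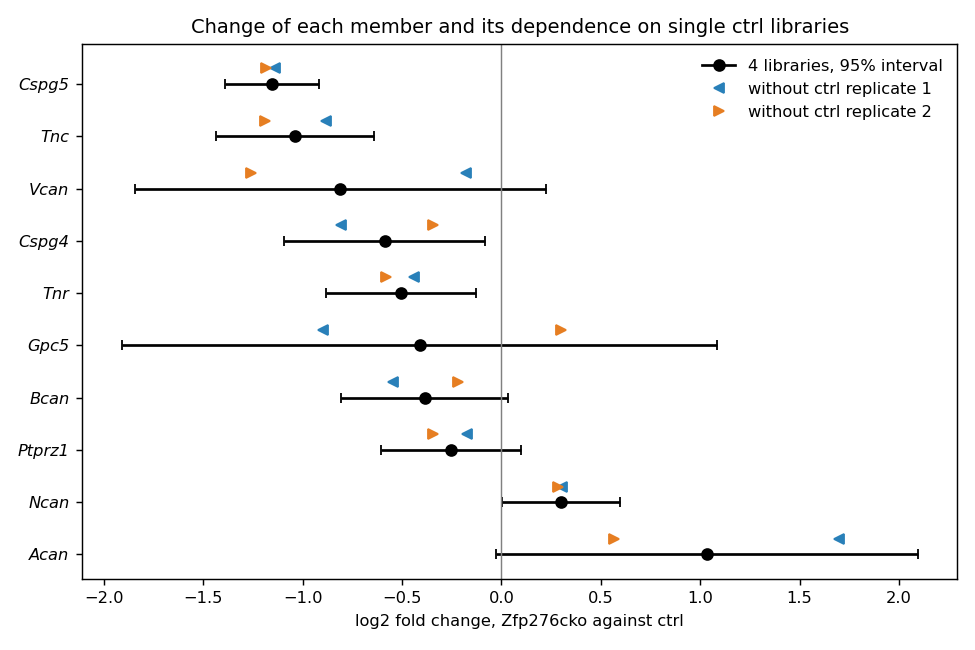
Log2 fold change of Zfp276cko against ctrl (horizontal axis) for the 10 genes, with black circles and bars for the edgeR estimate from 4 libraries and its 95% interval, and triangles for the estimate without ctrl replicate 1 (blue) or without ctrl replicate 2 (orange). The estimates of Cspg5 stay between -1.18 and -1.14, whereas those of Vcan, Acan and Gpc5 depend on which ctrl library is used.

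The markers of other cells were compared across the same libraries. The sum of 9 OPC markers was 6435 and 4768 CPM in ctrl against 3757 and 3645 in Zfp276cko cells, with 4 of the 9 below both ctrl libraries and 1 above, beside 23.7% below and 26.8% above among all tested genes. The sum of 10 oligodendrocyte markers was 7637 and 10337 in ctrl against 5485 and 5569 in Zfp276cko cells, with 9 of the 10 below both ctrl libraries, beside the same 23.7%. Microglia markers summed to 1992 and 1554 in ctrl against 1318 and 1371 in Zfp276cko cells. Of these 10 markers, 1 was below both ctrl libraries and 1 above, beside 23.7% and 26.8% of all tested genes. The OPC, oligodendrocyte and microglia sums were lower in both Zfp276cko libraries, as were 7 of the 10 matrix genes. The part of the numbers of these cells in those 7 results was not tested. Astrocyte markers summed to 1505 and 1290 in ctrl against 1555 and 1477 in Zfp276cko cells, with Gjb6 at 3 counts or fewer in every library. Neuron markers, which bear on Ncan, Acan and Cspg5, summed to 55.4 in ctrl replicate 1, 279 in ctrl replicate 2 and 189 and 186 in the Zfp276cko libraries, so the genotypes overlapped. Pericyte and smooth muscle markers, which bear on Cspg4, summed to 116 in ctrl replicate 1 and 38.3 to 42.2 elsewhere, with Abcc9 and Vtn at 3 counts or fewer throughout. Endothelial markers summed to 11.7 and 7.55 in ctrl against 11.9 and 12.1 in Zfp276cko cells, with Cldn5 and Tek at 3 counts or fewer. The part of astrocytes, neurons or vessel cells in the members' values was not tested.

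**Figure D4:**
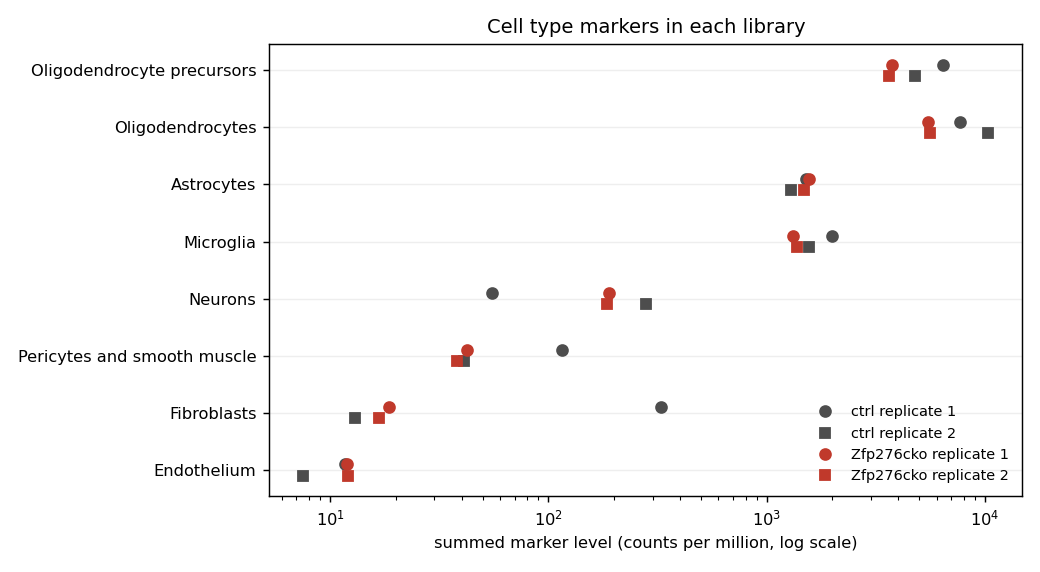
Summed level of each list of cell type markers (horizontal axis, CPM on a log scale) in the ctrl (grey) and Zfp276cko (red) libraries, circles for replicate 1 and squares for replicate 2. OPC, oligodendrocyte and microglia sums are lower in both Zfp276cko libraries, and ctrl replicate 1 stands apart in fibroblast markers at 326 CPM. Of the 10 microglia markers, 1 was below both ctrl libraries and 1 above.

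Genes that build, modify, bind or cut these matrix proteins were examined as 6 lists with 93 genes, of which 90 were tested. No gene of the lists was called by edgeR, 8 were lower and 10 higher at an unadjusted p under 0.05, and 21 were below and 26 above both ctrl libraries. Among all tested genes the shares were 7.3% and 8.33% at that p and 23.7% and 26.8% by library, so the lists were near the background. Chst13, Has1 and Tnxb were too low to test, with 0, 1 to 2 and 3 to 11 counts per library. The median log2 fold change was 0.06 over the 90 genes, compared with -0.46 over the 10 members. DESeq2 called 5 genes of the lists lower and 3 higher (2.11% and 2.8% of all genes), and limma voom 1 lower and 0 higher (0.457% and 0.844%). For single members and genes of these lists, the adjusted p of DESeq2 is otherwise printed only where it was at most 0.05. It was above 0.05 for the others named, for instance 0.122 for Cspg4, 0.131 for Acan and 0.317 for Sema3a. Left with ctrl replicate 2 alone, edgeR called 11 lower and 19 higher (5.76% and 10.2% of all genes), and with ctrl replicate 1 alone 17 lower and 9 higher (7.77% and 10.8%).

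The enzymes that start and extend chondroitin chains were mostly overlapping. Of 13 genes, 2 were below and 3 above both ctrl libraries, and the median log2 fold change was 0.11. Csgalnact1, which adds the first sugar specific to chondroitin, had 609 and 1071 counts in ctrl against 447 and 451 in Zfp276cko cells (log2 fold change -0.90, and -0.45 without ctrl replicate 2). Ugdh, which makes the glucuronic acid precursor, had a log2 fold change of -0.22, Chpf, a chain polymerising factor, 0.21, and the chain-starting xylosyltransferases Xylt2 and Xylt1 0.26 and -0.15. Of these 5, Csgalnact1 was the one with an unadjusted p under 0.05 (0.0374).

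Among 11 tested genes for sulfation of the chains and for epimerases, 3 were below and 5 above both ctrl libraries, with a median of 0.17. Ust, which sulfates uronic acid in chondroitin and dermatan sulfate, had 8258 and 8396 counts in ctrl against 4674 and 4933 in Zfp276cko cells. Replicates of Ust agreed closely within each genotype, and the log2 fold change was -0.79 with a standard error of 0.098 (adjusted p = 0.117, edgeR; 7.26e-07, DESeq2). Papss1, which makes the sulfate donor, had 7857 and 8632 counts against 6471 and 6303 (log2 fold change -0.37). Chst14, the dermatan 4-sulfotransferase, was higher in both Zfp276cko libraries (133 and 114 against 196 and 209, log2 fold change 0.72), and Chst11, the chondroitin 4-sulfotransferase, had a log2 fold change of 0.20.

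Of 12 tested genes for hyaluronan and its binding proteins, 3 were below and 6 above both ctrl libraries, with a median of 0.26. Cd44, a hyaluronan receptor of glial cells, had 1700 and 1644 counts in ctrl against 2533 and 2565 in Zfp276cko cells (log2 fold change 0.61, adjusted p = 0.123, edgeR). DESeq2 gave Cd44 an adjusted p of 0.00298 with a log2 fold change of 0.59, under the limit of 0.6. Cemip, which takes part in breaking hyaluronan down, had 335 and 197 counts in ctrl against 59.7 and 67.0 in Zfp276cko cells (log2 fold change -2.07, adjusted p = 0.139, edgeR; 5.93e-05, DESeq2). The hyaluronidase Hyal2 had a log2 fold change of 0.33 and the receptor Hmmr 0.19.

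The 15 proteases and inhibitors had a median of -0.31, with 4 below and 3 above both ctrl libraries. Adamts4, a protease that cleaves lecticans, had 3323 and 4301 counts in ctrl against 2091 and 2203 in Zfp276cko cells (log2 fold change -0.83, adjusted p = 0.162, edgeR; 0.0015, DESeq2). The inhibitor Timp4 had 943 and 599 counts in ctrl against 460 and 423 in Zfp276cko cells (log2 fold change -0.80, and -0.44 without ctrl replicate 1). The membrane protease Mmp14 had 1139 and 667 against 1533 and 1587 (log2 fold change 0.79, and 0.44 without ctrl replicate 2). Timp2 and Timp3, the inhibitors with the most counts per kb, had log2 fold changes of -0.0080 and 0.19, and both changed sign when single ctrl libraries were left out.

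Of 20 receptors and ligands, 6 were below and 5 above both ctrl libraries, with a median of -0.01. Beside Cntn1, the growth factor gene Fgf2 had 116 and 122 counts in ctrl against 227 and 268 in Zfp276cko cells (log2 fold change 1.06, adjusted p = 0.162, edgeR; 0.0136, DESeq2), and the guidance factor gene Sema3a 33.2 and 33.8 against 65.2 and 71.3 (log2 fold change 1.02). The integrin gene Itgb1 had a log2 fold change of -0.44 (-0.18 without ctrl replicate 1, -0.68 without ctrl replicate 2), and Nfasc, an adhesion molecule of paranodes and axons that oligodendrocytes also make, -0.71 (-1.07 without ctrl replicate 1 and -0.23 without ctrl replicate 2). Ncam1, a neural adhesion molecule, had a log2 fold change of 0.05.

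Of 19 tested genes in the list of other core proteins and tenascins, 3 were below and 4 above both ctrl libraries, with a median of -0.01. Tnn, a tenascin gene 153299 bases from Tnr on chromosome 1, had 59.36 and 27.01 counts in ctrl against 191 and 186 in Zfp276cko cells. On the log2 scale the difference for Tnn was 2.13 (standard error 0.44), opposite in sign to those for Tnr and Tnc (adjusted p = 0.176, edgeR; 0.00122, DESeq2). The glypican gene Gpc1 had 3264 and 2637 counts in ctrl against 1856 and 1830 in Zfp276cko cells (log2 fold change -0.68, adjusted p = 0.17, edgeR; 0.0118, DESeq2), and its mean of 464 counts per kb was far above that of Gpc5. Fmod had a log2 fold change of -0.93 from 42.7 and 33.8 counts in ctrl against 25.3 and 14.6 in Zfp276cko cells (-1.38 without Zfp276cko replicate 1 and -0.59 without Zfp276cko replicate 2), the abundant syndecan Sdc3 0.31 (0.71 without ctrl replicate 1 and -0.0066 without ctrl replicate 2) and agrin (Agrn) 0.12.

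**Figure D5:**
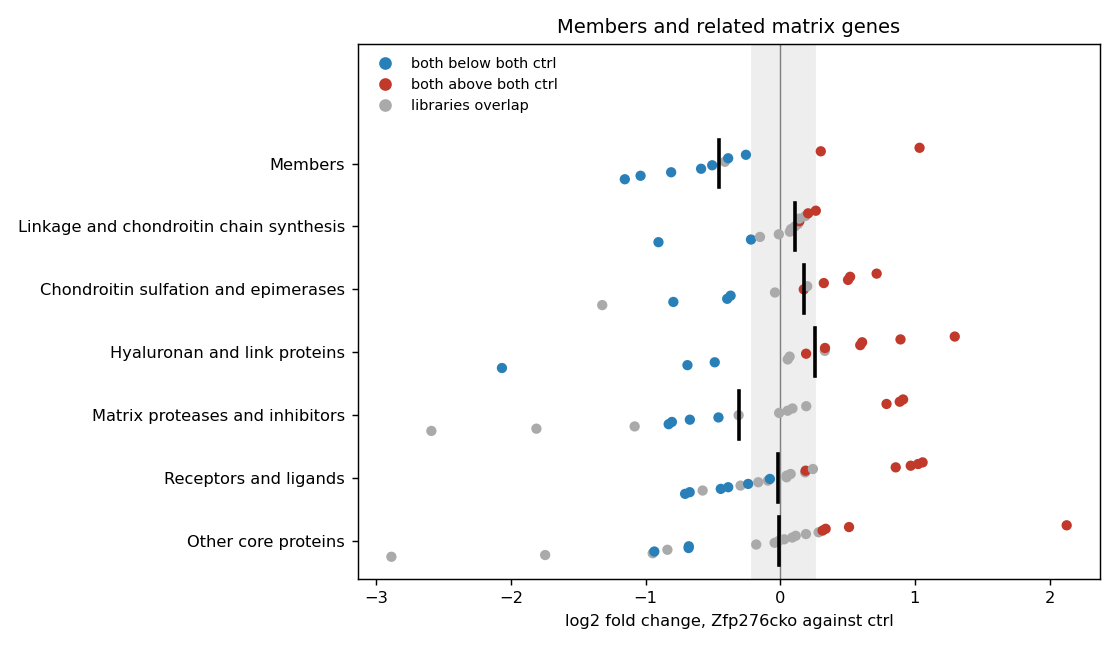
Log2 fold change of Zfp276cko against ctrl (horizontal axis) for the members and the genes of the 6 related lists (rows), coloured by whether both Zfp276cko libraries were below (blue) or above (red) both ctrl libraries or overlapped them (grey). Black bars give each list's median, which is -0.46 for the members and between -0.31 and 0.26 for the related lists, and the grey band spans the interquartile range of all tested genes.

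Genes with the most similar course over the 4 libraries were sought by the root-mean-square distance between log2 profiles, each centred on its own mean. Among the members, Cspg4 and Bcan were nearest to each other (distance 0.108), as were Cspg5 and Tnc (0.126) and Ptprz1 and Tnr (0.126). Acan was far from all other members, with Ncan the nearest at 0.576. Over all genes, Cspg5 was nearest to Tprn (0.0167), Pdgfa (0.0412) and Gpr62 (0.0491), and Tnc to Cmya5, Serinc5 and Fam163a (0.0333 to 0.0502). Tnr was nearest to Pls1, Sema4d and Pclo (0.0072 to 0.011), Ncan to Foxred2, Fuom and Dclk2 (0.0079 to 0.011), Bcan to Mxd4, Sv2a and Btbd17 (0.0098 to 0.0107) and Ptprz1 to Gatad2a, Inpp4a and Tsg101 (0.0103 to 0.0109). Cspg4 was nearest to Gm6145, Pcyt1b and Bace1 (0.0313 to 0.0373), Vcan to Myo5a, Reep1 and AC139845.1 (0.0288 to 0.0444), Acan to Aph1c, Mgst1 and Msr1 (0.0302 to 0.0381) and Gpc5 to Gper1, Wipf3 and Gm6863 (0.0595 to 0.0792). Each profile has only 4 libraries, and the distances describe these libraries alone.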

How the data were processed

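RNA-Seq libraries came from 2 preparations each of ctrl and Zfp276cko 1° OGCs, which the labels call biological replicates. The counts deposited by the authors are whole numbers of reads per gene symbol, neither normalized nor filtered. Reads had been mapped to mm10 with STAR 2.5.4a per the labels. The submitters' processing notes list featureCounts 1.5.1 for counting, whereas the methods of the study name HTSeq. Libraries were made with a stranded kit, and the strand setting of the counting is not given in the sources used here. Entries with the same symbol were not merged. No column of another sample was present.

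Genes were filtered with filterByExpr, normalized with TMM and compared with the quasi-likelihood test of edgeR 4.0.16 in R 4.3.3, with Benjamini-Hochberg adjustment over 15766 genes. Calls needed an adjusted p of at most 0.05, a log2 fold change of at least 0.6 in size and, on average, no fewer than 20 normalized counts. Scripts were tested on simulated data in which all libraries had the same spread, unlike the ctrl and Zfp276cko libraries here. Alternatives were DESeq2 1.42.0, limma voom with quality weights per genotype (limma 3.58.1), edgeR's newer quasi-dispersion, DESeq2 size factors, no count filter or at least 10 counts in every library, an unadjusted p, a replicate block and leaving out each library. Exon lengths and gene positions came from GENCODE M21 (mm10) and promoter windows from RefSeq (GRCm38.p6). The libraries held 21068322 to 26599809 counted reads. Counting error is a larger part of the spread for genes with few reads, such as Gpc5 (20 to 49 per library) and Hapln3 (2 to 17). The p-values rest on 2 libraries per genotype.

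The members, the gene lists and the marker lists were chosen with earlier results of these data known. Named genes are the 10 members, Zfp276, Sox10, Pdgfra, in each related list the 3 genes with the smallest unadjusted p and the 3 with the most counts per kb of exon, and the 3 nearest genes to each member among those with a mean of at least 20 counts. Link protein genes outside this rule were chosen after their values were seen.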

Additional observations from a re-analysis of the deposited data

How the results depend on the processing

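With the 10 members, 7 stayed below and 2 above both ctrl libraries under DESeq2 size factors and with either other filter. Among all genes, 25.1% were below and 25.6% above both ctrl libraries with DESeq2 size factors. Those shares were 16.7% and 23.1% without a filter, and 23.9% and 26.8% with at least 10 counts in every library. edgeR's count of called genes was 0 lower and 0 higher. DESeq2 called 335 genes lower and 445 higher, limma voom 72 and 133, an unadjusted p with the limits on fold change and mean count kept 476 and 806, and the absence of a filter 8 higher. Of the members, DESeq2, limma voom and an unadjusted p with those limits each called 2 lower. Of the related genes, DESeq2 called 5 lower and 3 higher, limma voom 1 lower, and an unadjusted p with those limits 7 lower and 9 higher. Among all genes, the shares called lower and higher were 2.11% and 2.8% with DESeq2 and 0.457% and 0.844% with limma voom. With the unadjusted p they were 476 and 806 of 15766 genes. The cause of these gaps between methods was not tested. Leaving out 1 library gave 0 to 1286 genes called lower and 0 to 1792 higher, 0 to 4 members lower and 0 to 1 higher, 0 to 17 related genes lower and 0 to 19 higher, and a median log2 fold change of the members of -0.56 to -0.34. All calls came from leaving out a ctrl library, which leaves 1 ctrl library assumed to vary like the Zfp276cko libraries. The log2 fold change of Timp2 was -0.0080 and turned to 0.016 without a filter, 0.0050 with at least 10 counts in every library and 0.018 with limma voom and with the replicate block. Signs also turned among the fits without 1 library, with log2 fold changes of -0.27 to 0.29 for Timp2, -0.49 to 0.27 for Xylt1, -0.90 to 0.30 for Gpc5, -0.40 to 0.21 for Pdgfra, -0.23 to 0.76 for Timp3, -0.10 to 0.20 for Ncam1, -0.0066 to 0.71 for Sdc3 and -0.027 to 0.26 for Agrn. The deviations of replicates with the same number had a correlation of 0.006 over 14324 genes. This cannot show whether the libraries were paired, because 0.307% of genes lay 2-fold or more apart in the Zfp276cko replicates. The fit with the replicate block called 0 genes lower and 0 higher.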
